A study of Homo sapiens with 17 samples.

Results

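Endothelial cells sorted for a reporter of GATA2 were sequenced in 4 libraries, and the 2 libraries numbered 2 were compared with the 2 numbered 1. These 4 were taken, of 17 libraries in the series, as the ones with a replicate number in their titles. The cells were differentiated from H1, a long-established line of human embryonic stem cells, and carried a green fluorescent protein (eGFP) reporter of GATA2. Each number has 1 library derived without and 1 derived with vitamin C, as the titles give it. The other 13 libraries follow re-plated cells of the same kind, and only their pair at 0 h is used here. No label says what the replicate number stands for (a culture, a differentiation or a sequencing run). The p-values therefore speak for these 4 libraries and nothing more, and the spread behind them is largely borrowed across genes.

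The labels of these 4 libraries conflict. Their descriptions place both libraries numbered 1 in the condition without vitamin C and both numbered 2 in the condition with it. If the descriptions hold, the contrast of number 2 against number 1 is the contrast of vitamin C. The column headers of the tables carry the vitamin C condition and number of the titles. Under the descriptions, replicate number and vitamin C cannot be told apart. Throughout, 4 values in a row stand for number 1 without and with vitamin C, then number 2 without and with vitamin C, by title.

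Blood stem cells arise in the embryo from haemogenic endothelium, a small set of endothelial cells in the wall of arteries. During this endothelial-to-haematopoietic transition, arterial genes kept up by Notch and SOX17 are turned down while RUNX1 and its target GFI1 come on, and GFI1 represses endothelial genes. GATA2 acts in both the endothelium and the blood cells it forms, so a sort on its reporter can hold cells before, within and just past the transition. In bulk RNA, a change in the mix of such cells and a change of RNA per cell cannot be told apart.

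The values were TPM, transcript abundances scaled for gene length and library total, over 28285 gene identifiers. Between 17214 and 17485 identifiers were above 0 in a library. No depth can be read from TPM, so the precision of low values is unknown. Endothelial markers were abundant in all 4 libraries. CDH5, the adhesion molecule VE-cadherin, was at 405, 615, 399 and 416 TPM, and KDR, the main VEGF receptor, at 1522, 2030, 1331 and 880 TPM. The sorted-for gene itself, GATA2, was at 177, 243, 172 and 184 TPM, with a log2 difference between numbers of -0.22 ± 0.20 (standard error; adjusted p = 0.508, limma). Markers of finished blood cells were low: PTPRC, the leukocyte antigen CD45, was listed at 0 in 3 libraries, and the 6 blood markers summed to 15.7, 14.6, 27.3 and 27.5 TPM. The 5 mesenchymal markers summed to 744, 374, 399 and 341 TPM, highest in number 1 without vitamin C.

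The libraries of number 1 were less alike than those of number 2. Across the 14421 genes tested, the median absolute difference was 0.325 on the log2 scale between the libraries of number 1 and 0.292 between those of number 2. At least a doubling or halving separated 10% of genes in the first case and 4.96% in the second. Between numbers the median absolute difference was 0.339 without vitamin C and 0.517 with it, where 22.2% of genes were more than 2-fold apart. The pair with vitamin C was thus farther apart than the pair without.

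Between the numbers, 239 of 14421 tested genes were called (1.66%) in limma at a Benjamini-Hochberg adjusted p under 0.05, with vitamin C as a block. Of these, 61 were higher in number 2 (0.423%) and 178 lower (1.23%). Every called gene had the same sign in both vitamin C pairs and differed at least 2-fold, and 124 differed at least 4-fold. In 238 the values of the 2 numbers did not overlap, against 55.1% of all tested genes (17.9% higher and 37.1% lower in number 2). The median log2 difference over all tested genes was -0.16, so number 2 was a little lower across the table. With libraries rescaled to remove that shift, 136 genes were called, 55 higher and 81 lower, so 40.4% of calls were higher instead of 25.5%.

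The number of calls was not stable. Without the vitamin C term, which is the fit the descriptions would give, 156 genes were called. Leaving out a library also drops that term and leaves 1 number with a single library, which is then assumed to vary like the others. Without number 2 in either vitamin C condition no gene was called in limma (2162 genes at an unadjusted p under 0.05 without the library lacking vitamin C, 1387 without the other). Without number 1 with vitamin C 35 were called, and without number 1 without vitamin C 1144 were. Without a variance trend 2 were called, and without a filter on low values none (3627 at an unadjusted p under 0.05). Every called gene that could be tested kept its sign in each of these fits, but the fits could hardly have changed it. In 238 of the 239 the numbers did not overlap, so leaving out a library cannot reverse the sign. Dropping the vitamin C term, the variance trend or the filter leaves the log2 difference of a gene as it was.

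**Figure D1:**
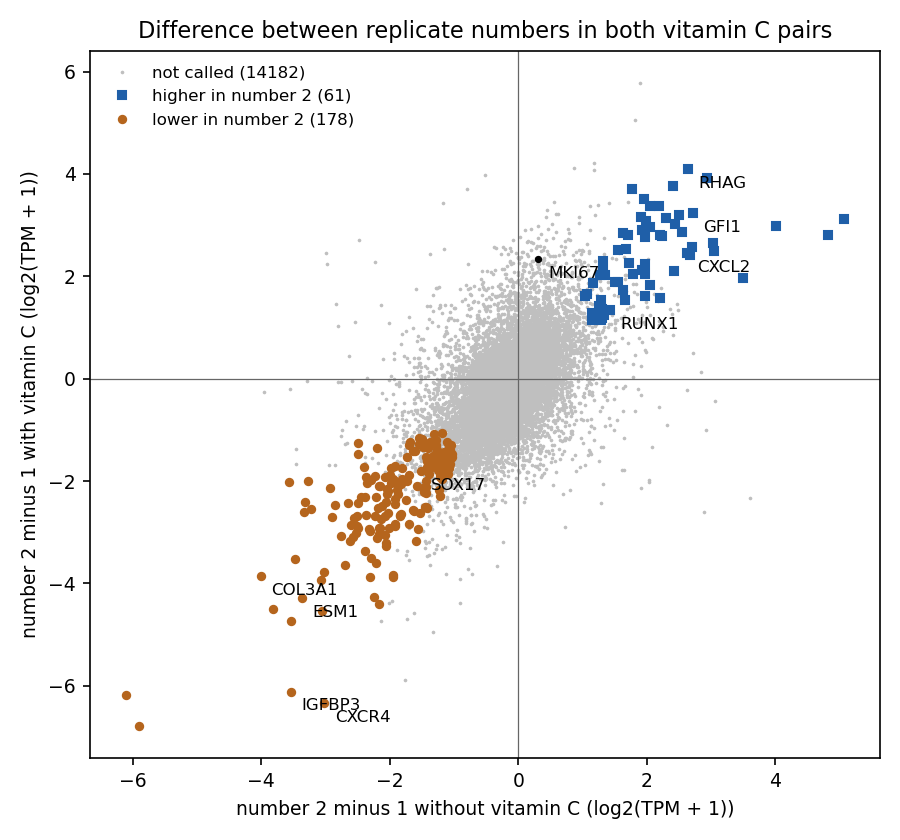
Each point is 1 of 14421 tested genes, with the difference of number 2 minus number 1 in log2(TPM + 1) between the libraries without vitamin C on the horizontal axis and between those with it on the vertical axis. Blue squares are the 61 genes called higher in number 2 and brown circles the 178 called lower. All lie in the quadrants where both pairs share a sign. The proliferation gene MKI67 (black) differed almost only in the pair with vitamin C.

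The arterial genes that differed between the numbers were all lower in number 2. Of 26 tested members of the arterial list, 7 were called lower and none higher, and 19 did not overlap between numbers, all of them lower in number 2. Over all tested genes, 1.23% were called lower and 0.423% higher in number 2. Ranges were separate for 37.1% in the lower and 17.9% in the higher direction. These shares are the background for the counts of every list below. The median log2 difference of the list was -1.29, against -0.16 over all genes, and it was -0.76 in the pair without vitamin C and -1.52 in the pair with it. With no filter on low values the list median was -0.95 over 29 genes, against -0.109 over all genes in that fit. The members that differed covered signals, receptors and a transcription factor, and not all arterial genes moved with them.

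The largest differences were in a chemokine receptor and a growth factor binding protein. CXCR4, the receptor for CXCL12 (chromosome 2, 136114349 to 136118165, GRCh38), was at 99.1, 821, 11.4 and 9.19 TPM. Both libraries of number 1 were far above both of number 2, and number 1 with vitamin C was the highest (log2 difference -4.68 ± 0.69, adjusted p = 0.0387). IGFBP3, a secreted binding protein of insulin-like growth factors (chromosome 7, 45912245 to 45921874), was at 28.3, 226, 1.53 and 2.28 TPM. It stood in the same order, with a log2 difference of -4.82 ± 0.58 (adjusted p = 0.0302). CXCL12 itself was low in all libraries, at 3.19, 5.77, 0 and 0.27 TPM, and was also called lower (-2.24 ± 0.37, adjusted p = 0.0479). It passed the filter of 1 TPM in 2 libraries through number 1 alone, so its direction is a description.

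TMEM100, a membrane protein of arterial endothelium downstream of BMP9 and ALK1, was at 29.9, 54.6, 1.20 and 1.45 TPM (-4.16 ± 0.33, adjusted p = 0.0248). UNC5B, a netrin receptor that restrains sprouting, was at 163, 393, 35.8 and 50.9 TPM (-2.54 ± 0.24, adjusted p = 0.0271). For both genes the values without vitamin C in number 1 already lay several-fold above number 2. SOX17, the transcription factor that upholds arterial identity, was at 125, 386, 43.2 and 110 TPM, so that the lower library of number 1 was close to the higher of number 2. Its difference was nevertheless alike in both vitamin C pairs (-1.66 ± 0.20, adjusted p = 0.0302).

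Several further arterial genes had separate ranges but missed the threshold. EFNB2, the ligand ephrin-B2 that marks arteries, was at 219, 479, 101 and 83.8 TPM (-1.81 ± 0.33, adjusted p = 0.0564). GJA4, the gap junction protein connexin 37, was at 571, 1294, 257 and 213 TPM (-1.87 ± 0.34, adjusted p = 0.0561). At the other end, HEY2, SOX7, SOX18 and HES4 lay between -0.13 and 0.10 on the log2 scale, so the list did not shift as a block. HEY2, for one, was at 40.8, 55.1, 40.1 and 64.5 TPM.

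The plot of single genes sets 10 arterial genes beside 10 blood-forming or red cell genes. The genes plotted were chosen with their values known.

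**Figure D2:**
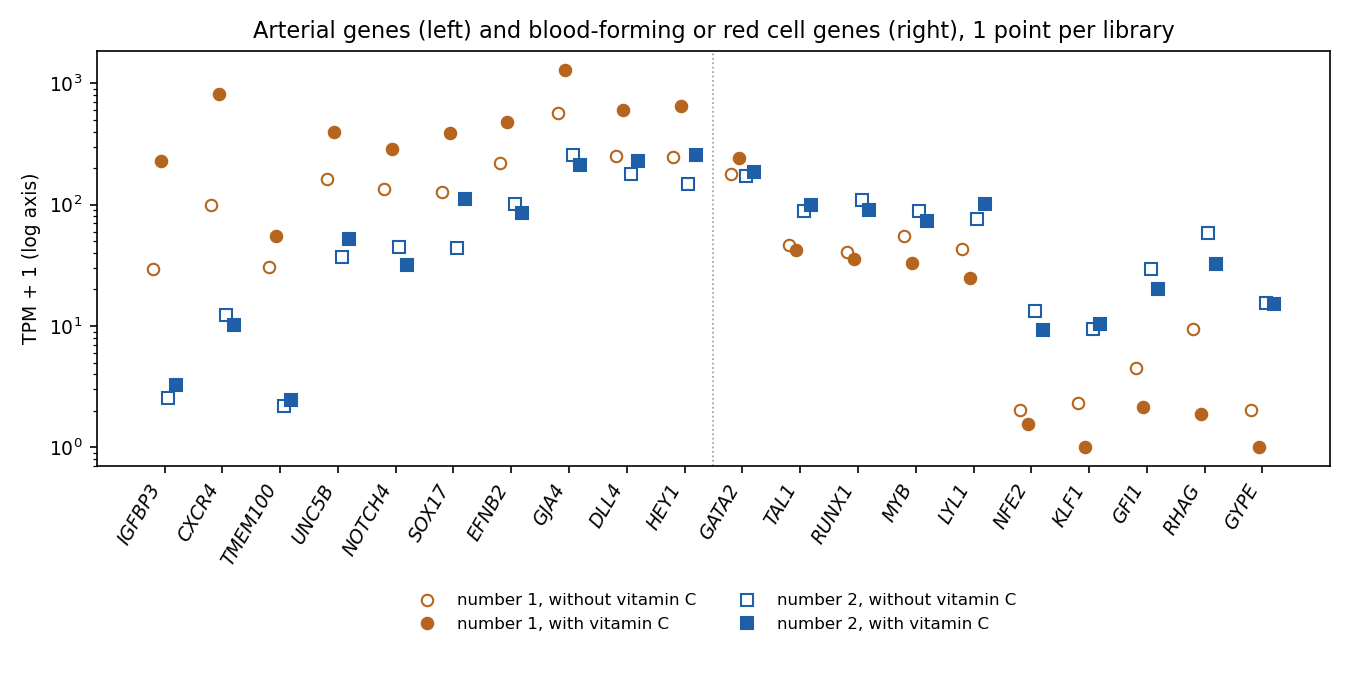
TPM + 1 on a log axis for 10 arterial genes (left of the dotted line) and 10 blood-forming or red cell genes (right) in each of the 4 libraries, circles for number 1, squares for number 2, filled with vitamin C. CXCR4 runs from 9.19 to 821 TPM with both circles on top, GFI1 from 1.14 to 28.3 TPM with both squares on top, and GATA2 overlaps.

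The Notch pathway, in which membrane-bound ligands of one cell cleave free a transcriptional co-activator from the receptor of the next, was described from ligand to target. Of its 24 tested genes 1 was called, lower in number 2, and 19 did not overlap in the lower direction against 1 in the higher. Over all tested genes the shares without overlap were 37.1% lower and 17.9% higher. The list median was -0.52. The called gene was NOTCH4, the receptor largely restricted to endothelium (chromosome 6, 32194843 to 32224067), at 134, 287, 44.0 and 30.8 TPM (-2.38 ± 0.37, adjusted p = 0.0433). The 0 h libraries without and with vitamin C held only 0 and 1 counts of NOTCH4, so its TPM are uncertain. The cause of that gap was not tested. Among ligands, DLL4, which drives arterial fate, was at 252, 604, 179 and 229 TPM (-0.95 ± 0.26, adjusted p = 0.0999), and DLL1 at 10.4, 25.8, 2.91 and 5.57 TPM (-1.78 ± 0.31, adjusted p = 0.0526). NOTCH1, the receptor needed for haemogenic fate, was at 148, 201, 111 and 108 TPM (-0.65 ± 0.21, adjusted p = 0.133). RBPJ, the DNA-binding partner of the freed receptor, was at 65.0, 51.1, 50.5 and 41.0 TPM.

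Targets of Notch did not share a direction. HEY1, a repressor of venous fate, was at 246, 651, 148 and 257 TPM (-1.03 ± 0.22, adjusted p = 0.0685). HES1, a repressor needed as blood stem cells form, was higher in number 2, at 182, 139, 442 and 573 TPM (1.65 ± 0.24, adjusted p = 0.038). NRARP, a feedback inhibitor that Notch induces, was at 42.5, 76.3, 51.2 and 63.1 TPM (-0.00 ± 0.23, adjusted p = 0.996). Over 14 tested targets the median was -0.11, with 1 called.

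The 300 bases around the RefSeq start of HES1 (GRCh38.p14, chr3:194135898-194136197, plus strand) are shown because HES1 was the single called Notch target and the opposite of HEY1 in sign. Capitals mark TGGGAA, the core bound by RBPJ, which occurs in 2 copies, and near the end a TGATAA. On either strand, TGGGAA occurs in 24.3% of 27305 such windows, so its presence is not unusual.
HES1: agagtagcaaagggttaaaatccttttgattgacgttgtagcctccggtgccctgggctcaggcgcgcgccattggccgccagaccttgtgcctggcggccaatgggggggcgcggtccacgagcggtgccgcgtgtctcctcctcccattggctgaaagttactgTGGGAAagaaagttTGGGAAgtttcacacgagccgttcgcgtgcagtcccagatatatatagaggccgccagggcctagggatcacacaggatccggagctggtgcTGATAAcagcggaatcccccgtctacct

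Transcription factors of blood formation that differed were mostly higher in number 2. In this list of 29 tested genes, 4 were called higher and 1 lower, and the median was 0.95. Ranges were separate for 19 in the higher and 5 in the lower direction, against 17.9% and 37.1% of all tested genes. RUNX1, the factor without which the transition does not occur, was at 39.6, 34.9, 108 and 89.9 TPM (1.38 ± 0.20, adjusted p = 0.0387). GFI1, its target and a repressor of endothelial genes (chromosome 1, 92474762 to 92486876), was at 3.47, 1.14, 28.3 and 19.2 TPM. The difference was similar without and with vitamin C, at 2.71 and 3.24 (2.98 ± 0.32 in the fit, adjusted p = 0.0296).

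The other genes called higher belong to the red cell and platelet lines. NFE2, a factor of megakaryocytes and red cells, was at 1.04, 0.55, 12.3 and 8.23 TPM (2.64 ± 0.34, adjusted p = 0.0338). KLF1, the activator of red cell genes, was at 1.31, 0, 8.51 and 9.44 TPM (2.71 ± 0.43, adjusted p = 0.0472). The member called lower was SOX6, which silences embryonic globin in red cells and is also found outside blood, at 11.3, 39.3, 1.72 and 0.92 TPM (-3.28 ± 0.54, adjusted p = 0.0479). NFE2 and KLF1 passed the filter of 1 TPM in 2 libraries through number 2 alone, and SOX6 through number 1 alone. The direction of each is therefore a description.

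TAL1, LYL1, MYB and CBFA2T3, all factors of early blood cells, had separate ranges and missed the threshold. Their log2 differences were 1.07 ± 0.21, 1.42 ± 0.31, 0.92 ± 0.22 and 1.68 ± 0.33, with adjusted p from 0.0614 to 0.0827. SPI1, the myeloid factor PU.1, was at 3.95, 1.83, 5.66 and 24.4 TPM, high in 1 library of number 2 (1.80 ± 0.63, adjusted p = 0.152). MECOM, a factor of arterial haemogenic cells and blood stem cells, went the other way, at 57.3, 109, 27.8 and 14.8 TPM (-1.91 ± 0.41, adjusted p = 0.071). ERG, FLI1, LMO2 and HHEX, which endothelium and blood share, lay between -0.23 and 0.20.

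Surface markers of haemogenic cells and progenitors were mixed. KITLG, the ligand of the progenitor receptor KIT and a product of niche endothelium, was called lower, at 56.4, 39.1, 10.2 and 8.73 TPM (-2.20 ± 0.25, adjusted p = 0.0302), and it was the single call among 19 tested. KIT was at 18.8, 8.16, 21.7 and 16.9 TPM, CD44 at 205, 209, 374 and 264 TPM, and SPN, the early blood antigen CD43, at 4.18, 2.52, 3.15 and 5.01 TPM. None of these 3 passed the test.

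Red cell membrane genes were among the largest rises. RHAG, which carries the Rh antigens (chromosome 6, 49605158 to 49636884), was at 8.37, 0.90, 57.6 and 31.5 TPM (3.37 ± 0.40, adjusted p = 0.0302). GYPE and GYPB, glycophorin genes, were at 1.05, 0, 14.6 and 14.3 TPM and at 1.74, 0.74, 21.3 and 9.94 TPM, with differences of 3.43 ± 0.39 and 2.84 ± 0.33 (adjusted p = 0.0302 each). GYPB and GYPE are near-identical copies, so reads may be split between them and the value of either is uncertain. RHAG, GYPE and GYPB passed the filter of 1 TPM in 2 libraries through number 2 alone, so their direction is a description. ART4, a blood group antigen, was at 17.9, 5.96, 63.3 and 90.4 TPM (2.74 ± 0.45, adjusted p = 0.0477). Haemoglobin genes were listed at low values: HBZ, HBG1, HBA1 and HBB were at 0 in every library, and HBE1 was at 3.25, 0.40, 2.85 and 2.91 TPM. How reads shared by similar globin genes were assigned is not known, so the values of such genes are uncertain. HBG2, a fetal globin, was at 0.72, 0, 6.46 and 2.13 TPM, separate between the numbers but not called (1.88 ± 0.37, adjusted p = 0.0625). It passed the filter of 1 TPM in 2 libraries through number 2 alone, so its direction is a description.

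Of 7 tested erythroid genes 2 were called higher (KLF1 and GYPB), and of 10 megakaryocyte and 19 leukocyte genes none in limma (5 and 6 at an unadjusted p under 0.05). Both erythroid calls passed the filter through number 2 alone, as given above, so their direction is a description. Erythroid genes had a median of 0.10 in the pair without vitamin C and 1.48 in the pair with it. Megakaryocyte genes had a median of 1.07, led by the platelet receptor subunit GP1BB at 13.6, 7.00, 24.0 and 59.8 TPM (1.85 ± 0.49, adjusted p = 0.0962). Their medians in the pairs without and with vitamin C were 0.41 and 1.22. The megakaryocyte median was 0.56 without number 1 with vitamin C, and 0.67 over 13 genes with no filter. GP1BB had 0 counts in either 0 h library, so its TPM are uncertain. Leukocyte genes had a median of 0.57, and of 0.27 and 0.59 in the pairs without and with vitamin C. Ranges were separate for 11 of 19 in the higher and 3 in the lower direction, against 17.9% and 37.1% of all tested genes. RAC2, a GTPase of blood cells, was at 41.4, 46.9, 77.4 and 98.5 TPM (0.97 ± 0.20, adjusted p = 0.068), and LAPTM5, a lysosomal protein of leukocytes, at 262, 87.5, 357 and 364 TPM (1.24 ± 0.37, adjusted p = 0.115).

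The promoter windows of called genes were searched for AGATAA or TGATAA on either strand, the core to which GATA factors bind. This search was added after the called genes had been seen. A match was found in 16 of 42 genes called higher that have a window (38.1%), in 16 of 126 called lower (12.7%) and in 16.6% of all 27305 windows. Among the 12 largest rises 6 of 9 windows held one, and among the 12 largest falls 0 of 9 did. GYPE and GYPB count as 2 of the 6 although they are paralogs. The sequences of KLF1 (chr19:12887152-12887451), RHAG (chr6:49636790-49637089) and GYPE (chr4:143905510-143905809) are printed for the match they hold, each on the minus strand of GRCh38.p14 from RefSeq with the match in capitals (TTATCA is TGATAA read on the other strand).
KLF1: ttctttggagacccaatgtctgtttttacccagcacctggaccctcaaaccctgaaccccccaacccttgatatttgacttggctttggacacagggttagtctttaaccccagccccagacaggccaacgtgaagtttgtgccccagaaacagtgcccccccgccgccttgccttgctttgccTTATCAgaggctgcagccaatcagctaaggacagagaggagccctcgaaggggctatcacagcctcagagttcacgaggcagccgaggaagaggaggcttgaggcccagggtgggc
RHAG: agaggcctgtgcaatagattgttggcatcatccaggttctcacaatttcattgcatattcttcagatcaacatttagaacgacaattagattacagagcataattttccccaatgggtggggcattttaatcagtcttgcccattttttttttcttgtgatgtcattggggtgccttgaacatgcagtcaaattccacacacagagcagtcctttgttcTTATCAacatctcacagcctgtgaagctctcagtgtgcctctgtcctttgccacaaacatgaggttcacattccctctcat
GYPE: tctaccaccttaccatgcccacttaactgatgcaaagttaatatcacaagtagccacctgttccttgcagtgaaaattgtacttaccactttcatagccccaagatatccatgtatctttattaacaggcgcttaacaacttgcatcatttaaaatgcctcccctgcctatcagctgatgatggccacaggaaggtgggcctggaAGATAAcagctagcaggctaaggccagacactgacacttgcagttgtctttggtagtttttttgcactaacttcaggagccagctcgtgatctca

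The TATA box TATAAA occurred in 3 of 9 windows of the largest rises and in 3 of 9 of the largest falls, against 12% of all windows. Over all called genes it occurred in 12 of 42 called higher (28.6%) and in 19 of 126 called lower (15.1%). CXCR4 was 1 of those falls, and its window (chr2:136118100-136118399, minus strand) is shown as that of the most abundant of them. Capitals mark overlapping matches to TATAAA on both strands and, further upstream, TTCCCA, which is TGGGAA on the other strand.
CXCR4: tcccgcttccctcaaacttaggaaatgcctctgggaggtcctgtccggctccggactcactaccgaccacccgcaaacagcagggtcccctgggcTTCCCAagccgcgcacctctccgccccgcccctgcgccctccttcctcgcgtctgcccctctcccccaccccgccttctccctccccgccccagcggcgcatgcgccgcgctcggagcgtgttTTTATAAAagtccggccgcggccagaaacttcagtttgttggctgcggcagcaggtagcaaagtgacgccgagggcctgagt

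Mitosis genes were low in 1 library, and the mean of the DNA replication genes was lowest in that library. None of 30 tested mitosis genes and none of 27 DNA replication genes was called in limma (19 and 18 at an unadjusted p under 0.05), although 30 and 25 of them had a positive difference, with medians of 1.21 and 0.85. The values of the numbers did not overlap for 13 mitosis and 18 replication genes in the higher direction, and for 0 and 1 in the lower, against 17.9% and 37.1% of all tested genes. All 30 mitosis genes were lowest in number 1 with vitamin C, and the other 3 libraries lay within 2-fold of each other for each of the 30. The mean log2 level of the list was 7.27, 5.06, 7.43 and 7.24. MKI67, the marker of cycling cells, was at 126, 21.7, 156 and 113 TPM (1.32 ± 0.44, adjusted p = 0.145), and TOP2A, the topoisomerase of dividing cells, at 337, 59.1, 371 and 379 TPM (1.40 ± 0.53, adjusted p = 0.173).

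Without number 1 with vitamin C the median was 0.12 for the mitosis list and 0.31 for the replication list, against -0.194 for all genes in that fit. CDKN1A, the cell cycle inhibitor p21, was also lowest there, at 270, 49.0, 210 and 217 TPM. The mean log2 level of the replication list was 5.29, 4.36, 5.59 and 5.59. PCNA, the sliding clamp, was at 148, 103, 236 and 229 TPM (0.91 ± 0.21, adjusted p = 0.0762). That same library held the highest CXCR4, IGFBP3 and SOX17. In the pair without vitamin C mitosis genes had a median difference of 0.19 and arterial genes one of -0.76. In the pair with it the medians were 2.24 and -1.52. The part of proliferation in the arterial difference was not tested.

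**Figure D3:**
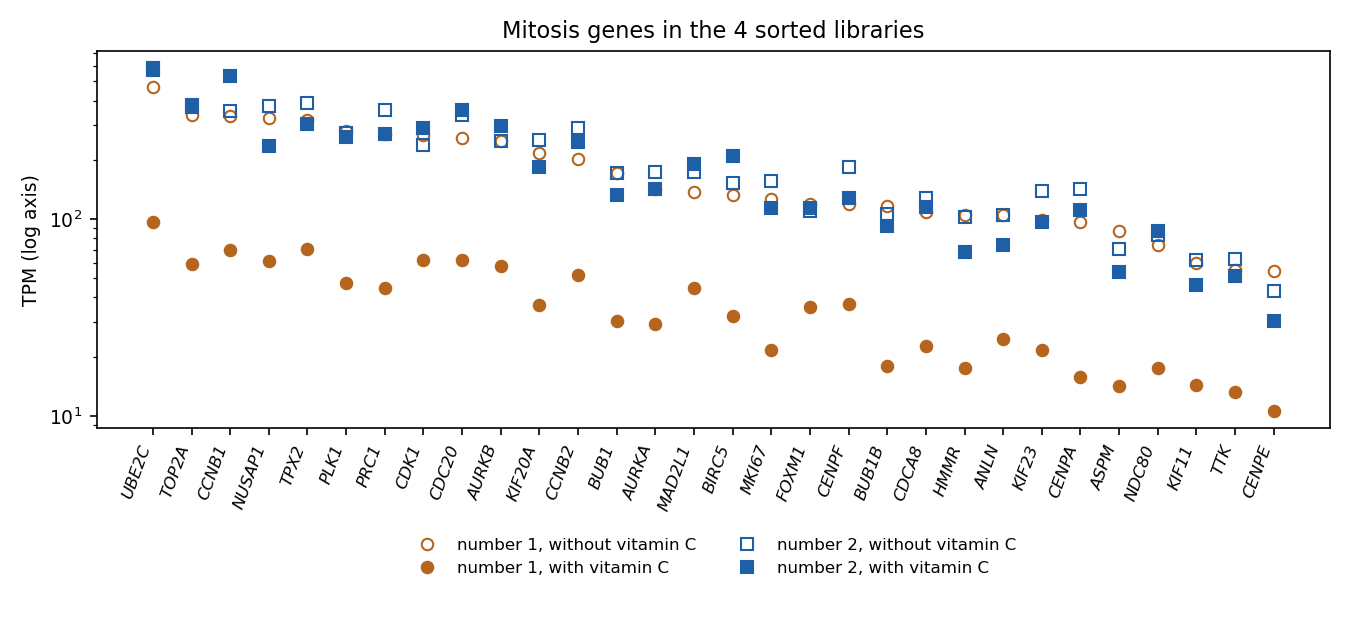
TPM on a log axis for the 30 mitosis genes in the 4 libraries, circles for number 1, squares for number 2, filled with vitamin C, ordered by the level in number 1 without vitamin C. The filled circles of number 1 with vitamin C lie below all other points for every gene.

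Several fibrillar and basement membrane collagens were lower in number 2. COL3A1, a fibrillar collagen (chromosome 2, 188974320 to 189012746), had the smallest unadjusted p of all tested genes. It was at 491, 506, 29.5 and 34.1 TPM, almost equal within each number and 15.7-fold apart in the means (log2 difference -3.93 ± 0.19, adjusted p = 0.00359). COL15A1, a collagen of vascular basement membranes, was at 128, 213, 14.5 and 8.23 TPM (-3.79 ± 0.36, adjusted p = 0.0271), and COL5A2, which helps to assemble fibrils, at 227, 483, 49.5 and 58.5 TPM (-2.60 ± 0.25, adjusted p = 0.0271).

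COL4A1 and COL4A2, the paired chains of the main basement membrane collagen, were at 637, 1137, 292 and 344 TPM and at 903, 1409, 375 and 510 TPM (adjusted p = 0.0433 and 0.038). NID2, which links laminin to collagen, was lower too, at 420, 544, 173 and 236 TPM (-1.24 ± 0.18, adjusted p = 0.0394). In all, 5 of 29 tested matrix genes were called lower and none higher, and the median was -0.47. The chains of type I collagen were not called and took opposite orders. COL1A1 was at 328, 183, 141 and 116 TPM (-0.93 ± 0.22, adjusted p = 0.0784), and COL1A2 at 795, 435, 1021 and 655 TPM (0.47 ± 0.19, adjusted p = 0.196). COL5A1 was at 99.3, 69.7, 85.8 and 64.6 TPM, so within type V collagen COL5A2 differed and COL5A1 overlapped.

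Of 25 mesenchymal and smooth muscle genes 3 were called lower, namely COL3A1, CSPG4 and PRRX1. CSPG4, the pericyte proteoglycan NG2, was at 36.5, 47.1, 4.19 and 7.68 TPM (-2.66 ± 0.27, adjusted p = 0.0271). PRRX1, a transcription factor of mesenchyme, was at 20.7, 17.5, 2.55 and 1.56 TPM (-2.73 ± 0.31, adjusted p = 0.0302). None of the 5 mesenchymal markers summed above was called in limma, and 2 (COL1A1 and TAGLN) had an unadjusted p under 0.05. COL1A1 and LUM, a proteoglycan at 58.8, 27.5, 13.8 and 26.9 TPM, were lower in number 2 without overlap. PDGFRB at 9.74, 27.7, 8.05 and 16.2 TPM and ACTA2 at 272, 114, 147 and 101 TPM overlapped but were lower in both vitamin C pairs. TAGLN at 75.4, 22.2, 88.3 and 80.0 TPM was higher in both. The part of admixed mesenchymal cells in the collagen difference was not tested.

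HOX genes, which mark position along the body axis, lay mostly lower in number 2. Of 33 listed HOX genes, 18 passed the filter of 1 TPM in 2 libraries, and since low genes could pass through number 1 alone their direction is a description. The median over the 18 was -1.23, but -0.34 over the 30 tested with no filter and -0.53 over the 10 that passed a filter of 5 TPM. HOXB7 was called, at 113, 98.7, 33.1 and 33.3 TPM (-1.64 ± 0.21, adjusted p = 0.0337). HOXA9, a factor of blood stem cells, was at 7.85, 22.4, 4.16 and 0.78 TPM (-2.25 ± 0.66, adjusted p = 0.115), and HOXA10 at 3.23, 5.2, 0.56 and 0.35 TPM. HOXB2 and HOXB4 went the other way, at 32.8, 27.8, 74.3 and 67.9 TPM and at 5.29, 4.21, 13.2 and 11.03 TPM, with adjusted p of 0.0525 and 0.0879. Within the HOXB cluster, HOXB5 and HOXB6 lay at 0.03 and -0.12 between these extremes.

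Cholesterol and fatty acid synthesis genes lay lower in number 2 by a similar amount in both vitamin C pairs, with medians of -0.86 and -0.85. Of 20 tested, 4 were called lower and none higher, and 18 did not overlap, all lower. Over all tested genes, 1.23% were called lower and 37.1% did not overlap in that direction. HMGCS1, an enzyme of the early mevalonate steps, was at 493, 335, 216 and 160 TPM (-1.13 ± 0.18, adjusted p = 0.0477). LSS, which closes the sterol rings, was at 162, 273, 58.8 and 57.4 TPM (-1.84 ± 0.24, adjusted p = 0.0353). DHCR7, an enzyme of the last steps, was at 156, 246, 76.0 and 84.1 TPM (-1.28 ± 0.21, adjusted p = 0.0485). With libraries rescaled to a common median the list median was -0.71 and 1 of the 4 calls remained past the threshold.

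The inflammatory and immediate early genes that were called were all higher in number 2. Of 13 tested NF-kB and inflammatory genes 3 were called higher and none lower. The neutrophil chemokines CXCL1 and CXCL2 were at 1.34, 1.69, 13.8 and 13.5 TPM and at 12.2, 20.6, 80.4 and 117 TPM, each with a difference of 2.54 (standard errors 0.32 and 0.22, adjusted p = 0.0338 and 0.0257). NFKBIA, the inhibitor that NF-kB induces, was at 107, 71.8, 239 and 266 TPM (1.52 ± 0.23, adjusted p = 0.0433). ICAM1, an adhesion molecule that NF-kB also induces, was at 36.0, 30.1, 15.7 and 11.9 TPM and so had the opposite order (-1.21 ± 0.25, adjusted p = 0.0667).

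Among 20 immediate early genes, which respond within minutes to serum, stress or cell handling, IER3, JUNB and IER2 were called higher. IER3 was at 35.3, 21.03, 169 and 151 TPM (2.51 ± 0.23, adjusted p = 0.0257), and JUNB at 195, 225, 484 and 576 TPM (1.33 ± 0.18, adjusted p = 0.0357). In the 0 h libraries without and with vitamin C, IER3 had only 0 and 2 counts, so its TPM are uncertain. FOS and JUN, the founding members, were not called: FOS was at 748, 723, 1054 and 1007 TPM (0.49 ± 0.19, adjusted p = 0.186) and JUN at 176, 258, 225 and 195 TPM. ID2, a BMP-induced inhibitor of differentiation, was at 199, 183, 633 and 530 TPM (1.60 ± 0.18, adjusted p = 0.0302), while its relatives ID1 and ID3 had differences of 0.67 ± 0.20 and 0.71 ± 0.25 and were not called.

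The lists set side by side show where the 2 libraries of a number stood together and where a single library stood apart.

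**Figure D4:**
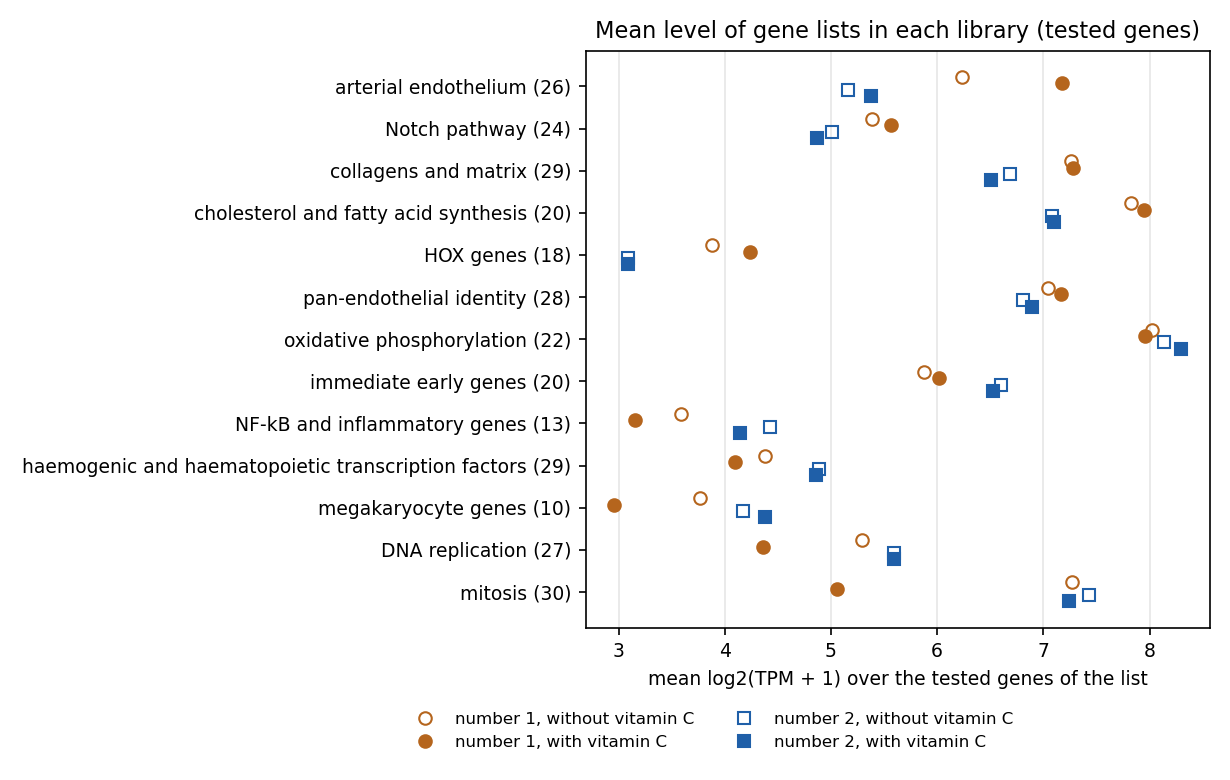
Mean log2(TPM + 1) over the tested genes of 13 lists (number of genes in brackets) in each library, circles for number 1, squares for number 2, filled with vitamin C. The means of every plotted list except mitosis split by number, as did 55.1% of single tested genes. Low HOX genes could pass the filter through number 1 alone. Mitosis genes are low in number 1 with vitamin C. DNA replication genes are lowest there (4.36) and lower in the other library of number 1 (5.29) than in number 2 (5.59 in both).

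Genes of endothelium at large had a median close to that of all genes, -0.25 over 28 tested. Of these, 3 were called lower and 1 higher. CLDN5, the tight junction claudin of endothelium, was at 84.7, 137, 15.5 and 35.6 TPM (-2.15 ± 0.23, adjusted p = 0.0275). PODXL, a sialomucin of the luminal surface, was at 116, 133, 32.5 and 39.1 TPM (-1.77 ± 0.20, adjusted p = 0.0302). ESM1, a proteoglycan of sprouting tip cells, was at 12.2, 54.6, 0.28 and 1.86 TPM (-3.82 ± 0.36, adjusted p = 0.0271). APLN, the tip cell peptide apelin, was the one called higher, at 1.88, 0.26, 9.85 and 10.3 TPM (2.54 ± 0.42, adjusted p = 0.0477), so tip cell genes did not move together. ESM1 passed the filter of 1 TPM through number 1 alone and APLN through number 2 alone, so the direction of each is a description.

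Venous and lymphatic genes showed no common direction, with a median of 0.09 over 16 tested. The pair called lower, EMCN and NT5E, are surface proteins found on venous and capillary endothelium. EMCN, the sialomucin endomucin, was at 172, 77.4, 13.6 and 18.3 TPM (-2.79 ± 0.37, adjusted p = 0.0353), and NT5E, the nucleotidase CD73, at 67.3, 42.5, 7.42 and 2.18 TPM (-3.40 ± 0.30, adjusted p = 0.0257). Both were higher without vitamin C within number 1, unlike CXCR4 and SOX17. NR2F2, the factor that sets venous fate, was low throughout, at 4.22, 1.24, 6.85 and 1.91 TPM (0.48 ± 0.34, adjusted p = 0.413).

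Of the dioxygenases that use vitamin C to demethylate histones and DNA, none of 19 tested was called in limma (2 at an unadjusted p under 0.05), and the median was -0.20. KDM6B, an eraser of the repressive mark H3K27me3, was at 30.7, 27.1, 24.7 and 20.6 TPM (-0.34 ± 0.24, adjusted p = 0.398), and KDM6A, which removes the same mark, at 21.5, 31.0, 36.5 and 20.8 TPM. EZH2, the enzyme that writes it, was at 55.9, 33.0, 60.1 and 51.0 TPM (0.36 ± 0.23, adjusted p = 0.372). SLC2A1, the glucose transporter GLUT1, which also takes up oxidised vitamin C, was called higher, at 43.9, 36.2, 109 and 81.5 TPM (1.22 ± 0.20, adjusted p = 0.0486).

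Among the largest differences outside the lists, the falls held A2M, SST and PIEZO2. The protease inhibitor A2M was at 90.8, 82.7, 6.91 and 2.14 TPM, the peptide hormone gene SST at 69.96, 101, 5.40 and 7.86 TPM and the stretch-gated channel gene PIEZO2 at 19.2, 36.7, 1.41 and 1.48 TPM, with adjusted p from 0.0134 to 0.0271. The rises held FGFBP3, a binding protein of fibroblast growth factors, at 45.7, 11.2, 181 and 138 TPM (2.73 ± 0.37, adjusted p = 0.0353). MT2A, a metallothionein, was at 7.60, 6.44, 45.8 and 59.1 TPM (2.73 ± 0.27, adjusted p = 0.0271), and NNMT, a methyltransferase of nicotinamide, at 9.59, 3.40, 47.2 and 44.6 TPM (2.78 ± 0.35, adjusted p = 0.0337). The largest fall of all, SLX1B at 58.9, 109, 0 and 0 TPM, is uncertain. Its near-identical copy SLX1A was at 55.2, 6.73, 125 and 143 TPM, and their sum was 114, 116, 125 and 143 TPM.

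Differences also followed gene length. In 4 equal bins of genes, from the shortest to the longest exonic length, the median log2 difference was 0.04, -0.11, -0.22 and -0.32. The median exonic length was 2618 bases for genes called higher, 6205 for genes called lower and 4898 for all tested. The part of length in the listed differences was not tested.

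The pair of libraries at 0 h of the re-plating course gives the vitamin C difference in a separate preparation, in CPM (counts scaled to the library total) with 1 library per condition and no test. Titles and descriptions give the same vitamin C condition for both. Of the 167 genes called lower in number 2 with at least 1 CPM there, 121 were higher with vitamin C at 0 h (72.5%). Of the 54 called higher in number 2 with at least 1 CPM there, 12 were higher with vitamin C (22.2%). Among all 12792 tested genes with at least 1 CPM there, 51% were. For most called genes, number 2 against number 1 thus had the opposite sign to vitamin C at 0 h.

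Lists differed in this respect. Arterial genes were higher with vitamin C at 0 h for 20 of 24, as CXCR4 was (8.66 and 27.6 CPM in the libraries without and with it) and SOX17 was (105 and 235 CPM), and these genes were lower in number 2. Within number 1 and within number 2, by title, the median arterial difference with vitamin C was 0.93 and 0.35, with the sign it had at 0 h (0.59). GFI1 was at 49.9 and 20.2 CPM in the same order, and RHAG at 95.1 and 46.8 CPM, while both were higher in number 2. HOX genes took the same sign in both contrasts, with 0 of 15 higher with vitamin C at 0 h, a median of -0.68, and -1.32 for number 2 against number 1 over the same 15, a size that depends on the filter as given above. The 30 mitosis genes had a median of -0.04 at 0 h, so the low level in number 1 with vitamin C was not seen in the 0 h library with vitamin C.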

How the data were processed

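Per the labels' protocols, RNA was taken with Trizol and libraries made with an Illumina TruSeq kit. The authors deposited 1 TPM table per sorted library, each summing to 995020 to 996531, with no mitochondrial gene, and tables of raw counts for the 0 h pair (7736762 and 8710906 counts). How the TPM were made is not given in the sources used here. The tools listed in the submitters' processing notes are DESeq 1.18.1, HTSeq 0.6.0, HISAT2 2.0.4 and SAMtools 1.3.1, with build hg38. Strand is not stated, so overlapping genes are uncertain.

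Log2(TPM + 1), which understates changes of low genes, was fitted in limma 3.58.1 (R 4.3.3, variance trend, two-sided) for genes that reached 1 TPM in 2 or more libraries, with vitamin C by title as block. That leaves 1 residual degree of freedom, so the spread is largely borrowed across genes. The script was tested on simulated data. CPM were computed from the deposited counts and the library total.

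Genes, lists and comparisons were chosen with earlier results of these data known. Named were the 12 largest called changes each way with at least 5 TPM in the higher number, 25 set genes, called members of the main lists and up to 4 members of the others by p. Other list members were named after their values were seen. Symbols and positions came from GENCODE release 29 and matched 25364 of 28285 identifiers, and promoter windows came from RefSeq (GRCh38.p14).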

Additional observations from a re-analysis of the deposited data

How the results depend on the processing

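The count of called genes, 239, moved with nearly every choice. It was 156 without the vitamin C term, 77 and 408 with 0.1 and 5 TPM added, 384 with a filter of 5 TPM, 0 with no filter (3627 at an unadjusted p under 0.05), 136 with median scaling, 492 with quantile normalization, 2 without a variance trend and 179 with robust moderation. Leaving out 1 library, which also drops the vitamin C term, gave 0 to 1144 calls. All called genes that could be tested under a setting kept their sign there. As 238 of them did not overlap between numbers, leaving out a library could not reverse these. Of the 111 genes given values in the text that were tested, 21 changed sign when a library was left out, and none of them was called. Over the left-out libraries the log2 difference ranged for ACTA2 from -1.15 to 0.10, CDH5 from -0.59 to 0.01, CDKN1A from -0.34 to 2.10, COL5A1 from -0.41 to 0.09, EZH2 from -0.01 to 0.73, FLI1 from -0.46 to 0.00, GATA2 from -0.45 to 0.01, HBE1 from -0.13 to 1.47, HES4 from -0.58 to 0.67 and HEY2 from -0.24 to 0.44. It ranged for HOXB5 from -0.15 to 0.22, HOXB6 from -0.25 to 0.01, JUN from -0.30 to 0.25, KDM6A from -0.30 to 0.48, LMO2 from -0.33 to 0.48, NR2F2 from -0.23 to 1.20, NRARP from -0.42 to 0.41, PDGFRB from -1.20 to 0.21, SOX18 from -0.62 to 0.36, SOX7 from -0.03 to 0.23 and SPN from -0.05 to 0.50. With median scaling COL5A1 (0.00), HOXB6 (0.04), JUN (0.13), NRARP (0.16) and SOX18 (0.03) changed sign too, and with quantile normalization LMO2 (-0.02) and NRARP (0.12) did. The causes of these moves were not tested. No paired analysis was possible because the replicate number is itself what was compared, and the pairing by vitamin C is already in the fit. Depth is unknown from TPM, so the precision of low genes cannot be stated.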
